A study of Mus musculus with 41 samples.

Results

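The histone marks over 9 mouse genes that control heat production and the making of mitochondria were read from 24 lists of CUT&Tag peaks. In CUT&Tag an antibody to a histone mark directs a transposase to cut and tag the DNA beside that mark. The panel was a list of gene names, chosen with earlier results of these data known and not by the height or number of peaks. It holds Ucp1, Cidea, Dio2, Prdm16, Ebf2, Ppargc1a, Ppargc1b, Ppara and Esrra, 9 of the 21728 protein-coding genes of the GENCODE M21 annotation on chromosomes 1 to 19 and X (build mm10). A promoter was the 2 kb on each side of every annotated transcription start site (TSS) of a gene, and a locus was the gene body with 20 kb on each side.

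Brown and beige adipocytes burn fuel for heat by letting protons leak across the inner mitochondrial membrane through the protein Ucp1, while white adipocytes mainly store lipid. Adrenergic signals in the cold raise the coactivator Ppargc1a, which binds nuclear receptors such as Ppara and Esrra and turns on genes of mitochondria and of fat oxidation, also in muscle. Prdm16 and Ebf2 set the brown and beige identity of fat cells. Of the marks, H3K4me3 sits at promoters in use or poised for use, H3K27ac at active promoters and enhancers, and H3K27me3 over genes silenced by Polycomb. H3K18la is a lactyl group, derived from lactate, on lysine 18 of histone H3.

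The 41 samples were all labelled as controls and formed 24 groups of 1 cell type and 1 mark, 17 with 2 samples and 7 with 1 sample. ADIPO were nuclei of white adipocytes, pulled with streptavidin beads from snap-frozen fat of AdipoCre-NuTRAP mice, in which an adipocyte-specific Cre turns on a tag of the nucleus. GAS was whole gastrocnemius muscle of C57BL/6 mice, which holds vessel, connective tissue and immune cells beside muscle fibres. The other 6 cell types were primary myoblasts (MB) and the myotubes made from them (MT), macrophages grown from bone marrow (BMDM), macrophages sorted from calf muscle after ischemia (PIM), and E14 embryonic stem cells, a single line, kept in serum with LIF (ESC-ser) or in 2i with LIF (ESC-2i). H3K18la was profiled in all 8 cell types, H3K27me3 in 7 (not in ADIPO), H3K27ac in 5 (ADIPO, GAS, BMDM, PIM and ESC-ser) and H3K4me3 in 4 (GAS, PIM, ESC-ser and ESC-2i). The authors pooled the replicates before calling peaks, so each group is 1 list, values carry no replicate error, and comparisons were made over cell types.

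The lists held 11002 to 36813 peaks and covered 0.856 to 7.47% of the genome, and H3K18la alone ranged from 0.856% in BMDM to 5.19% in MT. The number of reads per sample was not analysed here, and the part of depth or list size in the calls was not tested beyond the reduced lists of the closing section. The stem cells entered CUT&Tag as intact cells and the remaining 6 types as nuclei, so this step and stem cell identity cannot be told apart. The labels name the mark under the tag "antibody" in some groups and "histone" in others, ADIPO being among the latter for both of its marks. In ADIPO, H3K18la was called at the promoters of 9 of 9 adipocyte markers, 2 of 9 skeletal muscle markers, 2 of 7 macrophage markers and 0 of 4 endothelial markers, where 44.7% of all genes were called. Fibroblast markers were called at 3 of 4 promoters in it and at 2 of 4 in the ADIPO H3K27ac list (46.1% of all genes), and their part in the ADIPO values was not tested. GAS had 7 of 9 skeletal muscle markers, but also 4 of 4 endothelial, 3 of 4 fibroblast, 5 of 9 adipocyte and 1 of 7 macrophage markers (36.1% of all genes), and the part of these cells in the GAS values below was not tested. BMDM and PIM had 7 of 7 macrophage markers, with 3 and 5 of 9 adipocyte markers and each 2 of 4 endothelial markers (18.5 and 37.8% of all genes). MT had 8 of 9 skeletal muscle markers, with 2 of 9 adipocyte and 2 of 7 macrophage markers (34.8% of all genes). MB had 3 of 5 myogenic and 2 of 9 skeletal muscle markers (11.1% of all genes). Both stem cell lists had 6 of 6 pluripotency markers (33.4% of all genes in ESC-ser and 37.8% in ESC-2i). In each of these bulk samples, fewer cells that carry a mark and less mark per cell cannot be told apart.

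Sequences are given first for the places that the results turn on, in the mouse build GRCm38 (mm10), each 300 bases long and 5′ to 3′ on the strand named. The promoters run from 250 bases before to 50 after a start site and come from RefSeq, whose promoter table had entries for Ucp1, Prdm16, Ppargc1a, Dio2, Ppara and Esrra. The Ucp1 promoter (chr8:83290098-83290397, plus strand) is shown as the one of these 6 that carried H3K27me3 in all 7 cell types measured, with the nuclear receptor core motif AGGTCA in capitals.
Ucp1 promoter: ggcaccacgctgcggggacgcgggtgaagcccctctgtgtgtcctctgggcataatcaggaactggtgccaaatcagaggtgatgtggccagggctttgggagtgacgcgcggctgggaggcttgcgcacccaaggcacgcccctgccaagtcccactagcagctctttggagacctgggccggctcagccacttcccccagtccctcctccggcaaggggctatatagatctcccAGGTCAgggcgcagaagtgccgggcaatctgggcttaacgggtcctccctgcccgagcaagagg
The upstream Ppargc1a promoter (chr5:51567676-51567975, minus strand) is shown because its H3K18la was limited to GAS and MT.
Ppargc1a promoter: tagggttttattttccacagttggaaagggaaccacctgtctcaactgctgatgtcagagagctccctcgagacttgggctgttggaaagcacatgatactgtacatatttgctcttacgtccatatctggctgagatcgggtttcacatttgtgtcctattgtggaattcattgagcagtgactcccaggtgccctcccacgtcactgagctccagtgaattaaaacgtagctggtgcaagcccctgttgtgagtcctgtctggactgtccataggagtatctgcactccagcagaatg
The Dio2 promoter (chr12:90738989-90739288, minus strand) was under H3K4me3 in GAS and PIM and under H3K18la in MB, and its capitals mark the cAMP response element TGACGTCA.
Dio2 promoter: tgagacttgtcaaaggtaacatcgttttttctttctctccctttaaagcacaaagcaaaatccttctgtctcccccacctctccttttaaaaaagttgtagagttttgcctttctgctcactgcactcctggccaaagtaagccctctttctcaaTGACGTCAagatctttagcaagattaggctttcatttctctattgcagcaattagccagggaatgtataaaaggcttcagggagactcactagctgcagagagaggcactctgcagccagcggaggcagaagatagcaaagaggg
The Ppara promoter (chr15:85735526-85735825, plus strand) carried H3K18la in ADIPO and GAS and nowhere else, and its capitals cover the NRF1 site GCGCATGCG, matched on each strand with a shift of 1 base.
Ppara promoter: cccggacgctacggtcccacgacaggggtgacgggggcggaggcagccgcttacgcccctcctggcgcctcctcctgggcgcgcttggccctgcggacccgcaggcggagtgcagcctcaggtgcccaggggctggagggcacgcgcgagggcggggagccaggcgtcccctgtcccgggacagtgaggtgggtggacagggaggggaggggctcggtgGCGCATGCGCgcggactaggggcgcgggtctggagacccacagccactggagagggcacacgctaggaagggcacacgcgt

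The motifs were searched on both strands in all 32851 RefSeq promoters of this length. AGGTCA was present in 16.3% of them, TGACGTCA in 1.79% and GCGCATGCG in 1.75%. The ERR response element TCAAGGTCA, which contains AGGTCA, was present in 0.423% and in none of the 6 promoters of the panel. A match describes the letters of a window and not the binding of a factor. The median promoter was 52.7% G or C with 7 CG pairs, against 64.7% and 15 for Ucp1, 48.7% and 5 for Ppargc1a, 44.7% and 3 for Dio2, 74.7% and 30 for Ppara, 61% and 24 for Prdm16 and 66% and 25 for Esrra. Among the 4 GC-rich windows, H3K27me3 overlapped that of Ucp1 in 7 lists, of Ppara in 6, of Prdm16 in 1 and of Esrra in 0. Within 2 kb of the main coding start of Prdm16, H3K27me3 was called in 5 lists (GAS, BMDM, PIM, ESC-ser and ESC-2i). Outside promoters, the window around the highest H3K18la signal of ADIPO downstream of Ucp1 (chr8:83309939-83310238, plus strand) is shown, since both active marks peaked in it, with the bases of the maximum in capitals.
Ucp1 H3K18la maximum: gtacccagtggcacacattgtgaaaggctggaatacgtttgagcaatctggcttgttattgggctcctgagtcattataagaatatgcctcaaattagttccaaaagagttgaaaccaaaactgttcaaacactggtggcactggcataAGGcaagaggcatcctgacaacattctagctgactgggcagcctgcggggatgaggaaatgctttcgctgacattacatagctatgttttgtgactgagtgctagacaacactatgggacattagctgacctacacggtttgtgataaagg

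Across the panel, H3K18la and H3K27ac were called at more promoters in ADIPO than in any other cell type, with counts that depended on list size. For H3K18la the share of all genes called was also highest in ADIPO. H3K18la was called at 6 of 9 promoters in ADIPO, where 44.7% of all genes were called, and at 5 in GAS (36.1% of all genes). In the remaining lists it was called at 3 of 9 in MB (11.1%), 3 in MT (34.8%), 0 in BMDM (18.5%), 3 in PIM (37.8%), 4 in ESC-ser (33.4%) and 4 in ESC-2i (37.8%). Summed over the 8 lists this gave 28 of 72 combinations of gene and list, or 31.8% for all genes, so the panel as a whole stood near the background. With the 5000 strongest peaks of each list, H3K18la was called at 3 panel promoters in ADIPO (9.16% of all genes) and 2 in GAS (8.29%), and in lists reduced to equal called bases at 2 (5%) and 1 (3.36%). Counting coding start sites alone, the H3K18la calls were 5 in ADIPO (43.1% of all genes), 4 in GAS (33.9%) and 4 in ESC-2i (36.1%). H3K27ac was called at 7 of 9 promoters in ADIPO (46.1% of all genes), 4 in GAS (46.9%), 1 in BMDM (34%), 3 in PIM (48.7%) and 3 in ESC-ser (40.2%). Those were 18 of 45 combinations, against 43.2% of all genes. They fell to 7 of 45 with the 5000 strongest peaks of each list, where ADIPO had 3 (14.4% of all genes) and GAS 2 (13.9%). With equal called bases 11 were left, 4 in ADIPO (19%), 0 in GAS (4.25%), 1 in BMDM (27.7%), 3 in PIM (48.7%) and 3 in ESC-ser (35%). Counting coding start sites alone, the H3K27ac calls were 6 in ADIPO (44.8% of all genes) and 4 in GAS (45%).

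H3K4me3 was called at 8 of 9 promoters in GAS (64.2% of all genes), 7 in PIM (59.4%), 5 in ESC-ser (48.8%) and 7 in ESC-2i (61.8%), in sum 27 of 36 against 58.5%. H3K27me3 showed the widest gap to the background, with 40 of 63 combinations called against 21.7% of all genes. The count was 29 of 63 with the 5000 strongest peaks of each list (12.3% of all genes) and 25 with equal called bases (11.7%), and the gap was still the widest of the 4 marks in both settings. By list it covered 5 of 9 promoters in GAS (24% of all genes), 4 in MB (12.6%), 4 in MT (20.1%), 5 in BMDM (19.2%), 8 in PIM (26.5%), 8 in ESC-ser (27.1%) and 6 in ESC-2i (22.5%). In each of the 7 lists the share of panel promoters under H3K27me3 was thus above that of all genes. These genes were chosen as regulators of particular tissues and no test was made of the gap. The grid of promoter calls shows the split between genes, with Ucp1 and Ebf2 under H3K27me3 throughout and Esrra under active marks in nearly every list.

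**Figure D1:**
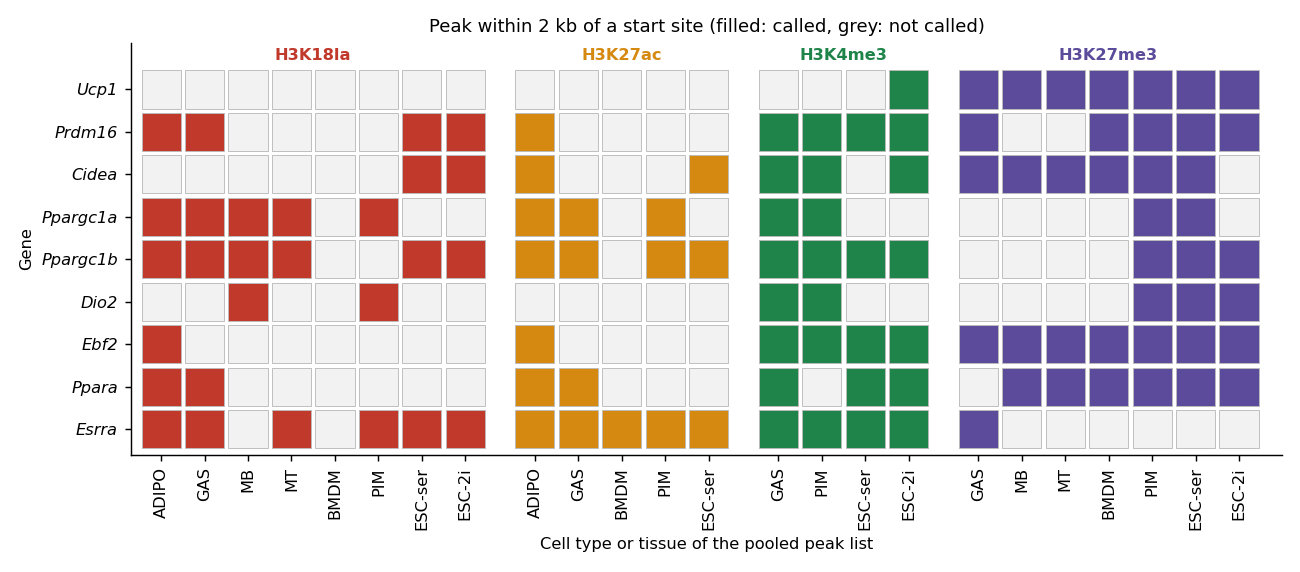
Promoter calls of the 9 genes (rows) in the 24 pooled peak lists (columns, by mark and cell type); a filled cell is a peak within 2 kb of a start site and a grey cell is no peak. H3K27me3 fills all 7 cells of Ucp1 and Ebf2, H3K18la fills none of 8 for Ucp1 and 6 of 8 for Ppargc1b and Esrra.

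Ucp1, the proton channel of brown fat mitochondria (chromosome 8, 83290352 to 83298452, plus strand), had no H3K18la promoter peak in any of the 8 lists, as had 30.3% of all genes, and it was the only gene of the panel in this class. It also lacked H3K27ac at its promoter in 5 of 5 lists, including ADIPO. H3K27me3 lay over the start site in 7 of 7 lists, in peaks from 1165 bp wide in ESC-ser to 19660 bp in MT. Peaks were ranked within their own list from the strongest, by the signal summed over the peak, and the place is given as a percent of the list. These peaks stood between the top 11.1% (MT) and the top 27.2% (PIM) of their lists, so they were among the stronger H3K27me3 peaks. Cover of the Ucp1 locus by H3K27me3 was 40.9% in MT, 27.1% in BMDM, 15.1% in MB, 14% in GAS, 12.3% in PIM, 7.46% in ESC-2i and 2.42% in ESC-ser. H3K4me3 was called at the Ucp1 promoter in ESC-2i alone, from 83289970 to 83291134. The ESC-ser H3K27me3 peak had those same 2 edges, and the ESC-2i H3K27me3 peak ended at the same base.

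In ADIPO, H3K18la and H3K27ac near Ucp1 were found away from the promoter. A H3K18la peak of 1162 bp lay 19057 bp downstream of the start site (83309409 to 83310570), and a H3K27ac peak of 857 bp overlapped it (83309793 to 83310649). Their highest points fell within the same 3 bases, at 83310088 to 83310090 for H3K18la and 83310089 to 83310090 for H3K27ac, which are in the window printed above. Both were weak calls, since the H3K18la peak was in the top 93.7% of its list and the H3K27ac peak in the top 73.5%. Neither mark had a peak at this place in another cell type. The only other H3K18la peak of the locus, in ESC-ser, lay from 83314467 to 83317159 over the neighbouring gene Elmod2. Cover of the Ucp1 locus by H3K18la was therefore 2.42% in ADIPO, 5.6% in ESC-ser and 0 in the other 6 lists.

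**Figure D2:**
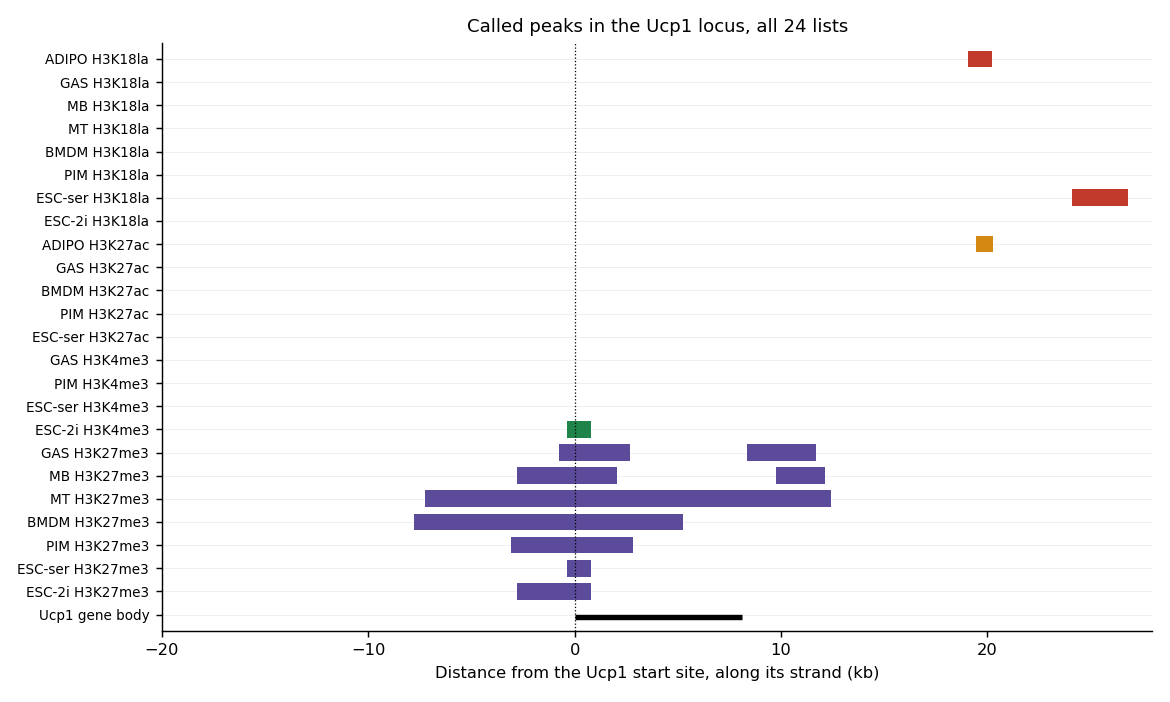
Peaks around Ucp1, by distance in kb from its start site along its strand, with 1 row per list and 1 bar per peak. H3K27me3 bars span the start site in all 7 lists, and the ADIPO H3K18la and H3K27ac bars sit together 19057 bp or more downstream.

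Cidea, a lipid droplet protein abundant in brown adipocytes (chromosome 18, 67343604 to 67367785, plus strand), had H3K18la at its promoter only in the stem cell lists. The ESC-ser peak was 4677 bp wide (top 21.9%) and the ESC-2i peak 23713 bp (top 3.93%), the latter reaching over the gene Impa2. In ADIPO the strong H3K18la peak lay upstream, 10857 bp wide and 9415 bp from the start site (67323333 to 67334189), in the top 2.82% of the list. ADIPO did carry H3K27ac at the Cidea promoter, in a peak of 1543 bp (top 67.4%), and a stronger upstream one of 5382 bp (top 10.4%) inside the wide H3K18la peak. All 3 ADIPO H3K18la peaks of the locus overlapped GAS peaks, and H3K27me3 covered the Cidea promoter in 6 of 7 lists, GAS included. H3K18la cover of the locus was 20.4% in ADIPO, 17.4% in GAS, 5.32% in MB, 25.8% in MT, 2.67% in BMDM, 2.68% in PIM, 44.6% in ESC-ser and 51.1% in ESC-2i. Stem cells thus had the highest values at Cidea, with MT above ADIPO and GAS.

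Dio2, the deiodinase that makes active thyroid hormone inside brown fat and muscle (chromosome 12, 90724552 to 90738438, minus strand), had no ADIPO peak of H3K18la or H3K27ac anywhere in its locus. H3K18la was called at the Dio2 promoter in MB (2713 bp, top 76.7%) and PIM (1545 bp, top 50.9%). H3K27ac was absent from the locus in all 5 lists. GAS and PIM had H3K4me3 at the Dio2 promoter, in the top 41.2% and the top 20.9%, and PIM, ESC-ser and ESC-2i had H3K27me3. The RefSeq promoter with the cAMP response element, 95 bases before its start, overlapped the MB H3K18la peak, both H3K4me3 peaks and the PIM H3K27me3 peak. Locus cover by H3K18la was 9.05% in MB, 5.59% in PIM, 5.37% in MT, 5.28% in GAS and 0 in the other 4 lists, and the values of PIM, MT and GAS were close to each other.

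Prdm16, a zinc finger coregulator of brown fat identity (chromosome 4, 154316125 to 154636873, minus strand), had H3K18la promoter calls in ADIPO, GAS, ESC-ser and ESC-2i. Most of them lay at starts of non-coding transcripts inside the gene. In ADIPO the peak was at the start 154528765 (2433 bp, top 51.9%), and in GAS the strongest one lay beside the start at 154334922 (3979 bp, top 23%) and over the gene B230104I21Rik. At the main coding start, 154636866, H3K18la was called in ESC-2i only, and counting starts of coding transcripts alone left 1 list with a call in place of 4. H3K4me3 was present near that coding start in 4 of 4 lists, and H3K27ac in none. The only H3K27ac promoter call of Prdm16 was in ADIPO (1796 bp, top 68.3%), beside the non-coding start 154528765. H3K27me3 was spread widely, with 40 peaks over 39% of the locus in GAS, 20 peaks over 63% in ESC-2i and 14 peaks over 15.7% in ESC-ser, while MB and MT had none. Of the 7 GAS H3K18la peaks at Prdm16, 4 overlapped GAS H3K27me3, and marks of the same cells and marks of different cells cannot be told apart in a whole tissue. Over the locus, H3K18la cover was 1.58% in ADIPO, 5.21% in GAS, 1.79% in PIM, 5.16% in ESC-ser, 9.94% in ESC-2i, 0.125% in BMDM and 0 in MB and MT.

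Ebf2, a transcription factor of brown and beige fat precursors (chromosome 14, 67233292 to 67430918, plus strand), had the clearest adipocyte pattern of the panel. Its promoter carried H3K18la in ADIPO alone, in a peak of 12139 bp (67232361 to 67244499) that ranked 847 of 28752, the top 2.95%. The H3K27ac peak of ADIPO there was 8744 bp wide and in the top 0.996%, and the other 4 H3K27ac lists had no peak in the Ebf2 locus. Ranked by maximum signal instead, which is not summed over the width, these peaks were in the top 20.7% and the top 7.22%. ADIPO had 10 H3K18la peaks over the locus and GAS 8, of which 6 and 6 overlapped each other, and the remaining 6 cell types had none. Locus cover by H3K18la was 14.6% in ADIPO and 9.08% in GAS. GAS differed from ADIPO at the promoter, where its nearest H3K18la peak started 3233 bp away (2579 bp, top 62.9%). Of the 10 ADIPO H3K18la peaks, 5 overlapped ADIPO H3K27ac, including the promoter and the intronic regions on the map of this locus.

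The Ebf2 promoter was under H3K27me3 in 7 of 7 lists, with the strongest ranks in ESC-ser (15697 bp, top 0.757%), PIM (top 1.91%), ESC-2i (top 1.93%) and BMDM (top 3.55%). H3K4me3 was there too in 4 of 4 lists, so every cell type measured for both marks had both at Ebf2. In GAS, 4 of the 8 Ebf2 H3K18la peaks overlapped H3K27me3 of the same tissue, and H3K27me3 covered 26.2% of the locus. ADIPO, the list with the strong active marks, was not profiled for H3K27me3 or H3K4me3.

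**Figure D3:**
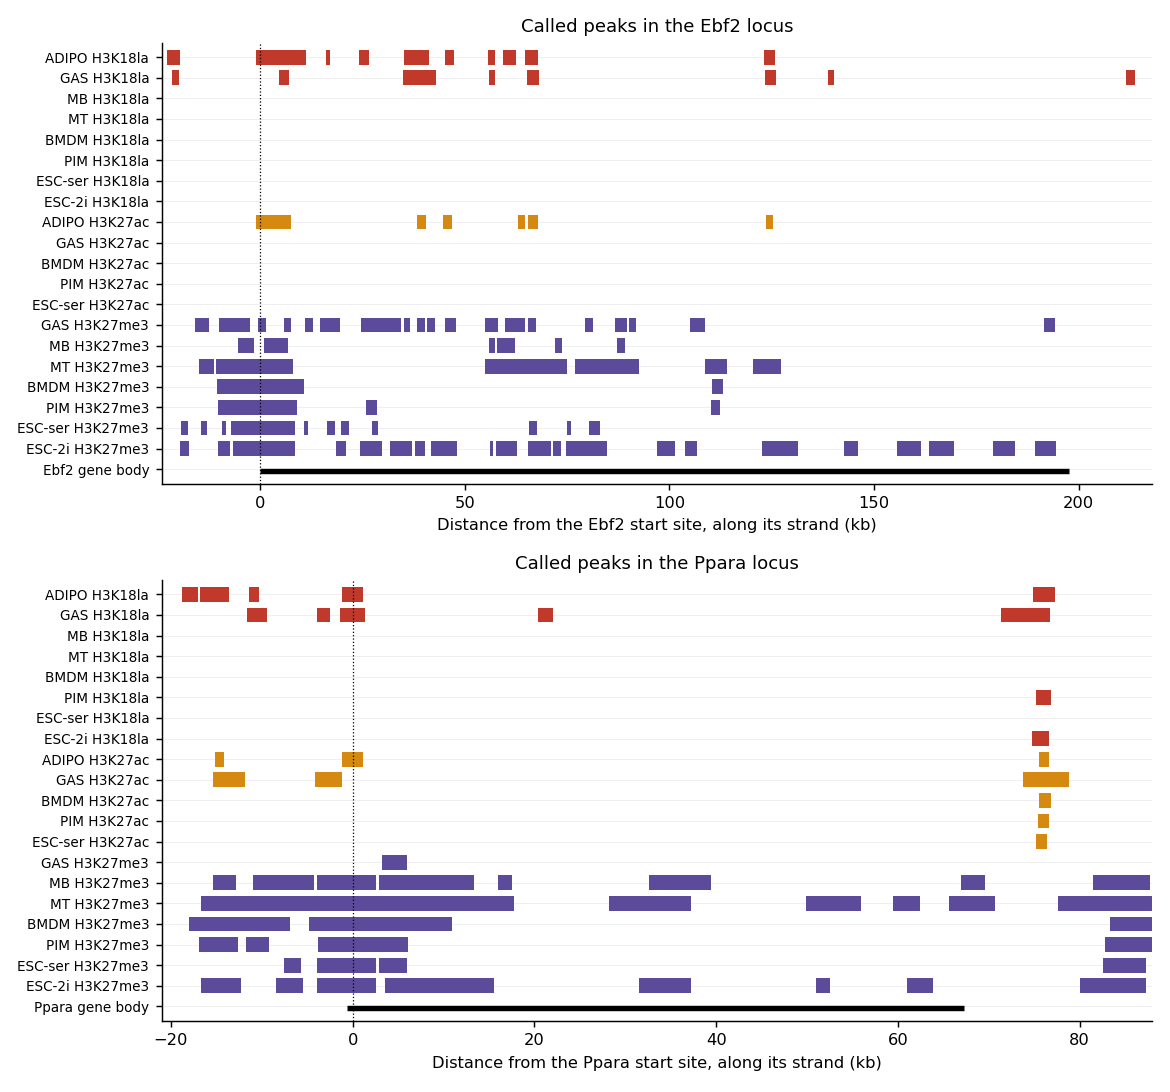
Peaks around Ebf2 and Ppara, by distance in kb from each start site along its strand, with 1 row per list of H3K18la, H3K27ac or H3K27me3, 1 bar per peak and the gene body in black. At Ebf2 the H3K18la bars are in ADIPO (10) and GAS (8) alone, while at Ppara the distal bars shared with PIM and ESC-2i lie over the neighbour Cdpf1.

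Ppargc1a, the coactivator that drives mitochondrial biogenesis in cold-exposed fat and exercised muscle (chromosome 5, 51454250 to 51567726, minus strand), had H3K18la promoter calls in ADIPO, GAS, MB, MT and PIM. Its start sites fall into a downstream region around 51553922 and an upstream one at 51567726, with 13.9 kb between the outermost sites. At the downstream start the peaks were 6779 bp in ADIPO (top 6.15%), 5948 bp in GAS (top 7.02%), 4843 bp in MT (top 20.1%) and 2750 bp in MB (top 48.6%). The PIM peak was 704 bp (top 88.8%) and lay 1012 bp from the start. At the upstream start, printed above, H3K18la was called in GAS (4425 bp, top 11.6%) and MT (3904 bp, top 19.5%) and H3K27ac and H3K4me3 in GAS, and ADIPO had no peak of either of its marks there. MB was like ADIPO in this, with the downstream start called and the upstream one not.

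The GAS list also had wide intronic peaks in Ppargc1a, of 13132 bp for H3K18la (top 3.18%) and 22284 bp for H3K27ac (top 2.56%). All 4 MT peaks of the locus overlapped GAS peaks, against 1 of the 2 ADIPO peaks. H3K4me3 at Ppargc1a was among the strongest of its lists, in the top 1.04% in GAS and the top 4.24% in PIM, and was not called in the stem cells. H3K27me3 was called at the promoter in PIM and ESC-ser only, and GAS, MB, MT, BMDM and ESC-2i had none in the whole locus. Locus cover by H3K18la was 5.15% in ADIPO, 19.8% in GAS, 1.79% in MB, 9.46% in MT, 0.459% in PIM and 0 in BMDM and both stem cell lists, so MT was above ADIPO.

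**Figure D4:**
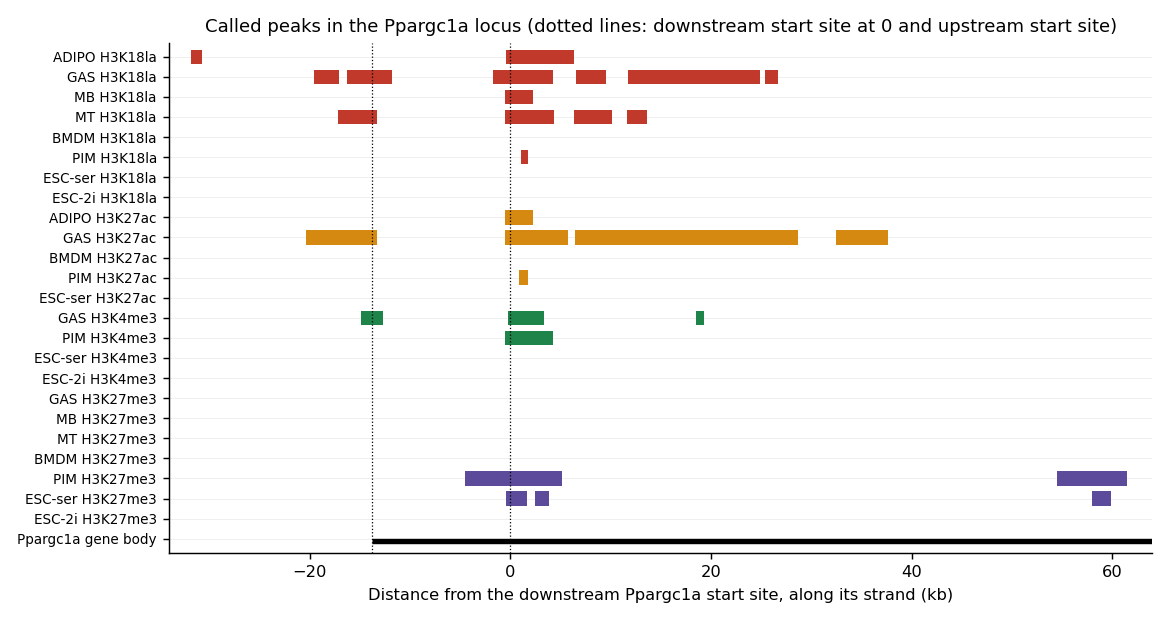
Peaks around Ppargc1a, by distance in kb from its downstream start site along its strand (the upstream start is at negative values), with 1 row per list, 1 bar per peak and the gene body in black. GAS and MT have H3K18la bars at the upstream start and ADIPO does not, and GAS has the widest bars inside the gene, 13132 bp for H3K18la and 22284 bp for H3K27ac.

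Ppargc1b, the close relative of Ppargc1a that keeps basal mitochondrial content (chromosome 18, 61298136 to 61400431, minus strand), had the highest H3K18la cover of the panel in ADIPO, GAS, MB and MT. The values were 28.8% in ADIPO, 49.5% in GAS, 17% in MB and 41.1% in MT, against 0.178% in BMDM, 1.25% in PIM, 3.28% in ESC-ser and 4.24% in ESC-2i. Fat and muscle lists were thus apart from macrophages and stem cells, with MT between GAS and ADIPO. At the promoter the GAS peak was 9656 bp (top 3.28%), the MT peak in the top 5.62%, MB in the top 8.07%, ADIPO in the top 11.7%, ESC-2i in the top 28% and ESC-ser in the top 36.3%. The strongest ADIPO peak of the locus was intronic (9883 bp, top 2.4%). Of 13 ADIPO peaks 10 overlapped GAS peaks, and of 9 MT peaks 8 did. H3K27ac covered 59.2% of the Ppargc1b locus in GAS, with a peak of 27062 bp in the top 0.986%, and 15.4% in ADIPO, with the promoter peak in the top 3.49%. H3K4me3 was called in 4 of 4 lists (GAS top 1.08%) and H3K27me3 at the promoter in PIM, ESC-ser and ESC-2i.

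Ppara, the receptor for fatty acids that controls fat oxidation (chromosome 15, 85734983 to 85802819, plus strand), had H3K18la at its promoter in ADIPO and GAS and in no other list. Both peaks were of middle rank, 2329 bp in ADIPO (top 50.4%) and 2705 bp in GAS (top 36%). H3K27ac was called in the same tissues, over the start site in ADIPO (2293 bp, top 22%) and 587 bp upstream of a start in GAS (2986 bp, top 59%). Ppara was under H3K27me3 at the promoter in 6 of 7 lists, GAS being the exception, where the nearest H3K27me3 peak was 2618 bp from a start. The MT H3K27me3 peak was 34472 bp wide (top 1.96%), and the MB peak was in the top 4.63%. H3K4me3 was called in GAS, ESC-ser and ESC-2i and not in PIM. Locus cover by H3K18la was 10.1% in ADIPO, 12.4% in GAS, 1.5% in PIM, 1.74% in ESC-2i and 0 in the other 4 lists. The PIM and ESC-2i values came from 1 peak each over the neighbour Cdpf1, a place also called in ADIPO and GAS.

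Esrra, an orphan nuclear receptor that works with the Ppargc1 coactivators on genes of respiration (chromosome 19, 6910977 to 6921813, minus strand), carried active marks almost everywhere. H3K18la was called at its promoter in 6 of 8 lists (not MB or BMDM), H3K27ac in 5 of 5 and H3K4me3 in 4 of 4. Its H3K18la peaks ranked from the top 24.9% in GAS to the top 78.2% in ESC-ser, and its H3K27ac peaks from the top 15.8% to the top 64.8%. H3K27me3 was called at the promoter in GAS only, in a peak 1878 bp upstream of the start that reached over the neighbours Catsperz and Kcnk4. Farther upstream the Esrra locus did carry H3K27me3, which covered 24.7% of it in PIM (a peak of 12536 bp, top 4.22%), 22.3% in BMDM, 20% in GAS, 14.5% in ESC-ser, 5.15% in ESC-2i and 0 in MB and MT. Locus cover by H3K18la was 16.6% in ADIPO, 10.7% in GAS, 7.72% in MT, 2.53% in BMDM, 5.56% in PIM, 34.1% in ESC-ser, 40.8% in ESC-2i and 0 in MB. Peaks over Prdx5, Trmt112, Catsperz, Kcnk4, Bad and Gpr137 lie within these 20 kb and count in the cover of Esrra.

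**Figure D5:**
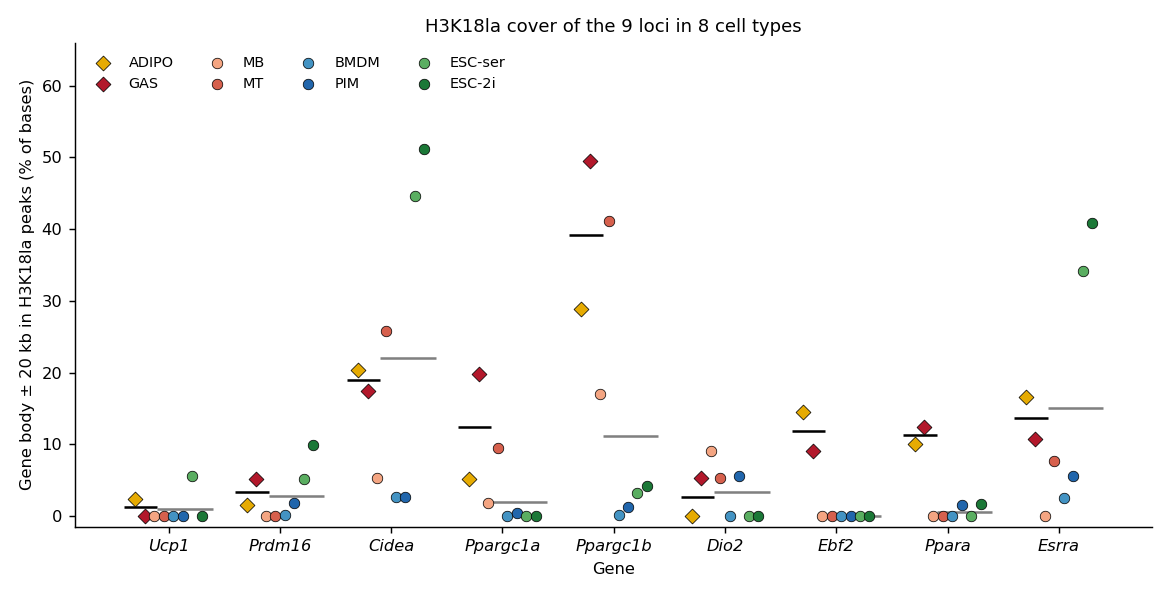
Percent of each locus (gene body with 20 kb on each side) in H3K18la peaks, for the 9 genes on the x axis, with 1 point per cell type and no error bars because replicates were pooled; black lines are the means of ADIPO and GAS and grey lines the means of the other 6. ADIPO and GAS are both above the other 6 points at Ebf2 (14.6 and 9.08%) and Ppara (10.1 and 12.4%), and a stem cell list is highest at Ucp1, Prdm16, Cidea and Esrra.

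H3K18la cover of a locus was compared between ADIPO with GAS, from white fat and whole muscle, and the remaining 6 cell types. Those 6 include the muscle cells MB and MT. Both tissues were above all 6 others at 2 of 9 genes, Ebf2 and Ppara, where 6.3% of the 18554 genes with any H3K18la cover and 5.38% of all 21728 genes did so. The same 2 genes had an H3K18la promoter peak in ADIPO or GAS and in no other cell type, a class that held 7.43% of all genes. At Ebf2 the mean cover was 11.8% in ADIPO and GAS and 0 in the others, and at Ppara it was 11.2% against 0.540% ± 0.840 (SD over 6 cell types). Ebf2 was among the genes with cover through ADIPO and GAS alone, so it had to be higher there and is given without a test, and 185 of the genes above all 6 others were of this kind. At Ppara the exact two-sided permutation test over the 28 choices of 2 cell types gave p = 0.03571, the smallest possible value, and a Benjamini-Hochberg adjusted p of 0.5986 over all 18554 genes. With the 5000 strongest peaks of each list, or with lists reduced to equal called bases, neither gene was above all 6 others in both tissues, and Ppargc1a was. The permutation test takes the cell types as exchangeable, although MB and MT, BMDM and PIM, and ESC-ser and ESC-2i are related pairs.

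Ppargc1b had the widest gap, 39.2% against 11.2% ± 15.9 (SD over 6 cell types), and Ppargc1a had 12.4% against 1.95% ± 3.74, each with an exact permutation p of 0.07143 (adjusted 0.6939), and at both MT lay above ADIPO. At Ucp1, Prdm16, Cidea, Dio2 and Esrra the differences were 0.275, 0.556, -3.14, -0.692 and -1.46 percentage points, with exact permutation p from 0.7143 to 1. All 5 differences were smaller than the SD over the other 6 cell types, which ran from 2.29 points at Ucp1 to 21.9 at Cidea. The median difference was 0.556 points over the 9 genes and 0.0271 over all genes. No gene of the genome passed an adjusted p of 0.05 in this exact permutation test, and 1107 of the 18554 were under an unadjusted 0.05. With 28 choices an adjusted p of 0.05 could be reached only if most of the genes tested stood at the smallest p, so the absence of adjusted calls came with the design. Leaving out MT brought Ppargc1a and Ppargc1b to the genes above all others, 4 of 9 in place of 2, while the share of the genes tested rose from 6.3 to 10.5%, and leaving out ADIPO also gave 4 with 18.5% of the genes tested. The differences at both genes leaned on GAS, since without it they were 3.2 points at Ppargc1a and 17.7 at Ppargc1b, against 10.5 and 28 with it.

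For H3K27ac, with ADIPO and GAS against BMDM, PIM and ESC-ser, an exact test cannot go below p = 0.1 and values are given alone. ADIPO and GAS had 1.84% and 26.6% of the Ppargc1a locus in H3K27ac peaks against 0 to 0.545% in the other 3, and 15.4% and 59.2% of the Ppargc1b locus against 0 to 1.93%. At Ppara the values were 4.03% and 10.7% against 1.12 to 1.18%, the latter again over Cdpf1. The Cidea locus had 12.6% and 14.8% against 0 to 8.3%, and the Prdm16 locus 1.15% and 1.22% against 0 to 0.128%. H3K27ac cover was thus higher in both tissues than in the other 3 at 5 of 9 genes, where 22.7% of all genes met the same criterion. The GAS and ADIPO lists also covered the largest parts of the genome, 7.47% and 2.07% against 1.04 to 1.24% in the other 3. The part of list size in the count of 5 genes was not tested. At Esrra ADIPO (21.3%) was below ESC-ser (21.7%), at Dio2 all 5 lists were at 0, and at Ebf2 (7.81%) and Ucp1 (1.78%) ADIPO was the only list with H3K27ac.

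H3K18la and H3K27ac of the same tissue were then compared at the panel. In ADIPO 6 of the 6 promoters with H3K18la also had H3K27ac, as had 88.5% of all genes with H3K18la. In GAS it was 4 of 5, with Prdm16 as the exception, against 84.3% of all genes. Both ADIPO calls of Prdm16 lay at or beside a non-coding start. Over the 9 loci, 26 of 42 ADIPO H3K18la peaks overlapped H3K27ac and 28 of 31 H3K27ac peaks overlapped H3K18la, where 64.9% and 86.3% of all peaks of these lists did. In GAS the counts were 23 of 44 and 17 of 26, with 64.3% and 55.4% of all peaks. Between tissues, 26 of the 42 ADIPO H3K18la peaks overlapped GAS and 23 of the 44 GAS peaks overlapped ADIPO, with 47.4% and 34.9% of all peaks. Of the MT peaks 16 of 19 overlapped GAS (47.5% of all MT peaks), and 16 of the 44 GAS peaks overlapped MT (47.2% of all GAS peaks). No test was made of these shares, since peaks of a locus are not replicates.

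Promoters with H3K4me3 and H3K27me3 together, often called bivalent, were frequent in the panel. In PIM there were 6 (Prdm16, Cidea, Ppargc1a, Ppargc1b, Dio2 and Ebf2), where 14.5% of all genes had both. ESC-2i had 5 (Ucp1, Prdm16, Ppargc1b, Ebf2 and Ppara) against 14.2%, ESC-ser had 4 (Prdm16, Ppargc1b, Ebf2 and Ppara) against 12.8%, and GAS had 4 (Prdm16, Cidea, Ebf2 and Esrra) against 12.1%. The H3K27me3 call of Esrra in GAS, 1878 bp from the start, was lost with promoters of 1000 bp or a 200 bp overlap. Prdm16 and Ebf2 were in all 4 sets. H3K18la with H3K27me3 at 1 promoter was found for Prdm16 and Esrra in GAS (4.57% of all genes), Ppargc1a and Dio2 in PIM (6.53%), Prdm16, Cidea and Ppargc1b in ESC-ser (8.32%) and Prdm16 and Ppargc1b in ESC-2i (4.82%). MB, MT and BMDM had 0 such promoters in the panel, with 0.387%, 3.14% and 1.24% of all genes. A promoter here spans all start sites of a gene, and over the 9 loci 9 of 44 GAS H3K18la peaks shared bases with GAS H3K27me3 (4.61% of all GAS H3K18la peaks).

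The promoter peaks of the panel were spread over the ranks of their lists. The median H3K18la promoter peak was in the top 32.6% of its list by summed signal (28 peaks, 2.95 to 88.8%), and the medians were 28.8% for H3K27ac (18 peaks), 26.4% for H3K4me3 (27 peaks) and 15.1% for H3K27me3 (40 peaks). H3K18la promoter peaks in the top 8.07% or higher were those of Ebf2 and Ppargc1a in ADIPO, of Ppargc1a and Ppargc1b in GAS, of Ppargc1b in MB and MT and of Cidea in ESC-2i. Ppara, Esrra and Prdm16 promoter peaks were of middle or low rank in ADIPO, at 50.4%, 42.4% and 51.9%.

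Genes that act with the panel were read in the same way, from 3 lists of pathway genes. Of 26 brown fat effectors and genes of adrenergic input, 18 had H3K18la at the promoter in ADIPO, 12 in GAS, 3 in MB, 12 in MT, 6 in BMDM, 9 in PIM, 16 in ESC-ser and 14 in ESC-2i. The shares of all genes in this order were 44.7, 36.1, 11.1, 34.8, 18.5, 37.8, 33.4 and 37.8%, to which the counts of MB, BMDM and PIM came close. Adrb1, a beta-adrenergic receptor, and Plin5, a lipid droplet protein of oxidative tissue, were called in ADIPO or GAS only. Elovl3, an enzyme of fatty acid elongation, and Zic1, a transcription factor, were called in none, and the fatty acid transporter Slc27a1 in all 8. Their locus cover in ADIPO was 38% for Adrb1 and 61.4% for Plin5, against 13% and 39% in GAS.

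Of 28 genes of mitochondrial biogenesis, the counts in the same order of lists were 21, 19, 5, 16, 12, 18, 14 and 18, to be read against the same shares of all genes. Perm1, a muscle regulator of respiration genes, was called in GAS only and Ssbp1, which binds mitochondrial DNA, in ADIPO only. H3K18la cover of the Perm1 locus was nevertheless higher in PIM (20.1%) than in GAS (13.3%). Esrrg, a relative of Esrra, was called in none, and Gabpa, Mef2d and Rxra in all 8. Of 20 targets of Ppara and Esrra in lipid oxidation, the counts were 18, 19, 5, 16, 4, 12, 11 and 14. Among them Cpt2, a carnitine acyltransferase of mitochondria, was called in ADIPO and GAS only, and Angptl4 and Cpt1a were called in all 8. The targets of lipid oxidation thus had H3K18la at 18 and 19 of 20 promoters in ADIPO and GAS (44.7% and 36.1% of all genes). H3K27me3 was called at 3 of these 20 in GAS and 1 of 20 in MT, and at 11 and 8 of the 26 brown fat genes, where 24% and 20.1% of all genes were called.

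Among these 74 genes, the one most like each member was found by counting in how many of the 24 lists the promoter calls differed. How many of all genes come as close to a member was not counted. Adrb1 matched Ebf2 in every list (0 of 24 differed), in promoter calls only. H3K18la covered 5.01% of the Adrb1 locus in MB, 2.02% in BMDM and 4.54% in PIM, where Ebf2 had no cover. Acadm, Cs and Hadha, genes of fat oxidation and the citric acid cycle, each differed from Esrra in 1 list, Otop1 from Ucp1 in 2 and Plin5 from Ppara in 3. Elovl3 differed from Dio2 in 4 lists, and Adrb3, Bmp7 and Esrrb from Cidea in 4. The nearest genes differed in 5 lists for Prdm16 (Adrb1), Ppargc1a (Acadl and Pparg) and Ppargc1b (10 genes tied, among them Acaa2 and Angptl4). Within the panel, Ebf2 and Ppara were each other's nearest, with 4 lists that differed, and Ppargc1a, Ppargc1b, Dio2 and Esrra had no other member closer than 7.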

How the data were processed

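CUT&Tag was performed on whole stem cells and on nuclei of the other 6 cell types, with the deacetylase inhibitor sodium butyrate in all buffers. Per the submitters' processing notes the tools were FastQC 0.11.0, Trim Galore 0.6.6, Bowtie2 2.4.4, SAMtools 1.13, bedtools 2.30 and SEACR 1.3, with build mm10. The authors combined the coverage of replicates and kept the strongest regions as peaks without a control track. The fourth column of each deposited list is the total signal of a peak, and the fifth is its maximum signal, the height of the peak. Both are unscaled for depth, so that signal was compared by rank within a list only, and reads per sample are not known from them. A wide peak gathers more total signal than a narrow one of equal height.

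The 9 genes, the pathway and marker lists and the comparisons were chosen with earlier results of these data known. All 9 genes are described. From the pathway lists, genes were named that had an H3K18la promoter peak in ADIPO or GAS only, in all 8 cell types or in none, in alphabetical order and at most 6 for each list and class, together with the nearest gene of each member (at most 3). Some items that this rule names are not reported here. An overlap of 1 bp counted. Cover of a locus was the percent of its bases in peaks, and the difference of means between 2 and 6 cell types was tested by an exact two-sided permutation test per gene with Benjamini-Hochberg adjustment at 0.05. Samples of 1 group are known only as separate samples, and pooling left no spread between them to test. The scripts were checked on simulated data. Calculations used Python 3.11.15, numpy 2.4.6, pandas 2.3.3 and bedtools 2.31.1, and figures matplotlib 3.10.9. Stem cell H3K27me3 and H3K4me3 lists named without a medium were taken as ESC-ser, since the sample descriptions give that name. Alternatives were other promoter, locus and overlap sizes, coding start sites, the 5000 strongest peaks, lists reduced to equal called bases, nuclei only and leaving out each cell type.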

Additional observations from a re-analysis of the deposited data

How the results depend on the processing

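No paired analysis was possible because replicates were pooled before peak calling. The counts of promoter calls per mark were within 1.5 times the reported ones with promoters of 1000 bp, coding start sites or a 200 bp overlap, while the H3K18la count of Prdm16 fell from 4 lists to 1 with coding start sites. With the 5000 strongest peaks of each list they fell to 9 for H3K18la (8.37% of all genes), 7 for H3K27ac (16.1%) and 13 for H3K4me3 (24.9%), and in lists reduced to the called bases of the smallest of each mark to 5 for H3K18la (6.21%), 11 for H3K27ac (26.9%) and 25 for H3K27me3 (11.7%). The H3K18la promoter calls of Ppara, Dio2, Esrra and Prdm16 were lost in both of these settings. The number of genes above all 6 other cell types was 2 with 5 kb or 50 kb around the gene, 1 with the 5000 strongest peaks and 1 in reduced lists (Ppargc1a in both, with 4.3% and 2.44% of all genes tested), 3 with nuclei only (Esrra added, with 16.8% of all genes tested), and 2 to 4 when each cell type was left out in turn, of which the 6 runs without another cell type were chosen after seeing the data. No gene passed the adjusted threshold in any setting, which says nothing about stability, since the smallest possible p was 0.06667 with nuclei only, 0.1429 without ADIPO or GAS and 0.03571 or 0.04762 otherwise, where most genes tested would have to reach it.

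The sign of a difference turned for some genes that had not passed the test. Esrra became 2.8 with 5 kb, 9.71 with nuclei only, 1.49 without GAS, 2.34 without ESC-ser and 3.67 without ESC-2i, where runs without 1 cell type began at -4.49. Prdm16 became -0.488 with 50 kb, -0.959 with the 5000 strongest peaks, -0.0209 in reduced lists, -1.26 without GAS and -0.0114 without MB or MT, where runs without 1 cell type reached 2.37. Cidea became 2.25 in reduced lists, 9.78 with nuclei only, 1.38 without ESC-ser and 2.68 without ESC-2i, where runs without 1 cell type began at -7.02. Ucp1 became -0.933 without ADIPO, and Dio2 1.95 without ADIPO and 0.451 without MB, where runs without 1 cell type began at -3.33. Their causes were not tested. Depth, list size and the missing replicate error limit every call.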
